A study of Mus musculus with 4 samples.

Results

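The genes described here are 36 glucocorticoid-responsive genes of the mouse. They comprise the glucocorticoid receptor, the enzyme that activates its ligand, and genes known from other work to respond to glucocorticoid hormones, most of them by rising. They were chosen by gene symbol, and each symbol had its own row among the 54532 gene rows of the deposited count table. Of the 36 genes, 32 had a mean of at least 1 CPM (a gene's reads relative to the scaled total of its library) and were tested. Hsd11b1, Gpx3, Lcn2 and Saa3 lay below that limit and are given by their counts. Another 6 (Crispld2, Fam107a, Hif3a, Slc10a6, Sult1a1 and Zbtb16) had a mean below 1 CPM in the uninduced libraries and passed only through the induced libraries, so that they had to differ between them.

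The RNA came from C3H10T1/2 cells, a line of mesenchymal stem cells (MSCs) from mouse embryos that can form bone, fat and cartilage cells in culture. All cells were transfected with siRNA for 48 h, either a control siRNA or an siRNA against the maintenance DNA methyltransferase DNMT1. They were then left untreated (control and siDNMT1) or induced toward osteoblasts (OB and siDNMT1_OB) for 3 days. The OB medium added L-ascorbic acid at 50 μM, β-glycerophosphate at 10 mM, the synthetic glucocorticoid dexamethasone at 0.001 μM (1 nM) and 1% penicillin-streptomycin, and the labels list none of these for the uninduced cells. Dexamethasone, the other additives and the days in culture therefore cannot be told apart in any comparison of induced with uninduced cells. Each group held 1 library, so no difference between single groups has a replicate check, and the intervals given here cover counting error only.

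Glucocorticoids cross the cell membrane and bind the glucocorticoid receptor, which waits in the cytoplasm in a complex with heat shock proteins. The bound receptor moves to the nucleus, pairs with another copy of itself on short palindromic DNA elements and raises transcription of nearby genes, while it can hold down inflammatory genes by acting on other transcription factors. Dexamethasone is a standard additive of osteogenic medium, although long exposure to glucocorticoids in the body causes loss of bone.

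The 4 libraries held between 22296046 and 27367792 counts. Dnmt1, the targeted gene, was measured at 265 CPM in control and 132 in siDNMT1, and at 85.4 in OB and 93.1 in siDNMT1_OB. Its level in siDNMT1_OB did not lie below that in OB (log2 fold change 0.13, 95% interval 0.04 to 0.21), so directions drawn from the library labelled siDNMT1_OB carry this doubt. Markers of MSCs and fibroblasts were present, with a summed level of 24799 to 31371 CPM over 10 genes and none at 0. Most of that sum came from the type I collagen genes and vimentin. Pdgfra, a growth factor receptor of MSCs and fibroblasts, had log2 fold changes on induction of 2.47 with control siRNA and 1.56 with DNMT1 siRNA, while Thy1, a surface marker, had 0.67 and 1.22. Over the 9 tested markers the medians on induction were 0.32 and 0.36 in the same order. Of these, 1 and 2 were higher by at least 1, beside 10.6% and 6.83% of all tested genes, and none was lower. The 8 osteoblast markers were mixed. Runx2, the transcription factor that starts the osteoblast program, was present at 1644 to 2459 counts in every library, whereas Alpl (0 to 2 counts) and Bglap (1 to 3 counts) were near 0 also after induction, and between 2 and 4 of the 8 were at or under 3 counts in each library. Of the 4 tested, 1 was higher and 2 were lower by at least 1 on the log2 scale in OB against control, beside 10.6% and 7.1% of all tested genes, and none passed in siDNMT1_OB against siDNMT1. Phex, a peptidase of mineralizing cells, had 256, 116, 687 and 168 counts in control, siDNMT1, OB and siDNMT1_OB, and was highest in OB. In the same order Spp1, which encodes osteopontin, had 14862, 5270, 4226 and 7261 counts and Dmp1, a matrix protein, had 80, 62, 8 and 37, both highest in control. In bulk RNA, more cells of a type and more RNA per cell cannot be told apart.

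To show the DNA at the start of these genes, promoter windows of 300 bases, from 250 before to 50 after a transcription start, were taken from RefSeq (GRCm38.p6). By symbol 30 of the 36 genes were matched to 42 windows, while Nr3c1, Cebpd, Angptl4, Cdo1, Tgm2 and Zbtb16 were not matched. On both strands the full palindrome, AGAACA and TGTTCT with 3 bases between them, was in 1 of 6 windows of Sgk1 and in 3 of all 32851 windows (0.00913%). The looser core, GNACA and TGTNC with 3 bases between them, which every full palindrome contains, was in windows of 5 of the 30 genes, in 6 of their 42 windows, against 156 of all windows (0.475%). Its first base lay at -188 from the start in Sgk1, at -94 in Mt1, at -118 in Fam107a, at -163 in Slc10a6 and at -181 in Map3k6. Fam107a has overlapping windows that hold the same matches, which were counted in each, here and in the window counts below. The letters AGAACA alone, also part of the full palindrome, were common, being in 19% of all windows and in 10 of the 42 windows of these genes. The metal response element, searched as TGCACNC or TGCGCNC because the metallothioneins are also driven by metals, was in 25.7% of all windows and in 12 of the 42. Mt2 had 4 matches to it and Mt1 had 3. Below are the windows of the 5 genes with the core palindrome and that of Mt2, written 5′ to 3′ on the strand of the gene. Capitals mark the core palindrome and, in Mt1 and Mt2 alone, the metal response element. The windows lie at chr10:21993640-21993939 (plus strand), chr8:94178839-94179138 (plus), chr14:8309730-8310029 (minus), chr5:103629354-103629653 (minus), chr4:133240568-133240867 (plus) and chr8:94172368-94172667 (plus).
Sgk1: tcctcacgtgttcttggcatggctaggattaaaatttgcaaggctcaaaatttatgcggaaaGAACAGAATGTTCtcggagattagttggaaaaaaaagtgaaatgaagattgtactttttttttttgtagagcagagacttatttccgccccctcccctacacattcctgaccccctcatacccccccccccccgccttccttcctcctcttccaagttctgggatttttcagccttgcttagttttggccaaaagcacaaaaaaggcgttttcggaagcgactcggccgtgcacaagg
Mt1: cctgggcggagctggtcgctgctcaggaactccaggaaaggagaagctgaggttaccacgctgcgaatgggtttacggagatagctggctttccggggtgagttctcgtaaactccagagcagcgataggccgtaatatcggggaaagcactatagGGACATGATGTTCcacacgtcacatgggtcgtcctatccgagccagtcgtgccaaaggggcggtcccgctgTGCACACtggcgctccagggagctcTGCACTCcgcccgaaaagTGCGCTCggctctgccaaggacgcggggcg
Fam107a: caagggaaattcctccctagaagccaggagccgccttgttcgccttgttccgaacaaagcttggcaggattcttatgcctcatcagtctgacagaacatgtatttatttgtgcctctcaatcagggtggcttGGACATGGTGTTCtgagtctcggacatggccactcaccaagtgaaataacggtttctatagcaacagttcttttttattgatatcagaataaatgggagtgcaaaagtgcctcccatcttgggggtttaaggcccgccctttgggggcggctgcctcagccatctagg
Slc10a6: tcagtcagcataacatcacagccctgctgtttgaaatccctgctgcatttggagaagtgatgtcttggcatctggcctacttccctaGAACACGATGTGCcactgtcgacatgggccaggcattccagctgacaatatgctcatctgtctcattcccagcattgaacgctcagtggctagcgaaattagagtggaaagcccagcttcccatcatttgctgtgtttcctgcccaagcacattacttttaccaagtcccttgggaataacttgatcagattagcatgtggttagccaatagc
Map3k6: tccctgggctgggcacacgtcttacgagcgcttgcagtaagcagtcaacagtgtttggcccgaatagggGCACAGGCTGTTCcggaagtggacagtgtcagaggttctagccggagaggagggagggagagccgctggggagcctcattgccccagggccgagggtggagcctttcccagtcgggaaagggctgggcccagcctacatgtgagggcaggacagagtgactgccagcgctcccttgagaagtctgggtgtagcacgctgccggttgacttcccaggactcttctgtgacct
Mt2: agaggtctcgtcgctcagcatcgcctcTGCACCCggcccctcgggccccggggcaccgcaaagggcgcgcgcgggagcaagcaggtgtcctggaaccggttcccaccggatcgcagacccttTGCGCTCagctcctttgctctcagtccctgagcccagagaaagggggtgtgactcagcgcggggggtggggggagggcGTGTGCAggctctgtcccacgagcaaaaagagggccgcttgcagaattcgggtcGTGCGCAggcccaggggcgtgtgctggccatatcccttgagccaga
These 6 genes differed widely in level and in change on induction, as described below, and a match of letters is no evidence of receptor binding. The windows of the 30 genes held a median of 14 CpG dinucleotides, the sites at which DNMT1 can maintain methylation, against 7 over all windows.

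To see how the genes behaved when cells were given OB medium, OB was first compared with control. Of the 32 tested genes, 23 were higher by at least 1 on the log2 scale and 1, Ptgs2, was lower, while 10.6% of all 13233 tested genes were higher and 7.1% lower by that much. Their median log2 fold change was 1.93, against 0.01 over all tested genes. The same comparison with DNMT1 siRNA, siDNMT1_OB against siDNMT1, uses other libraries. It gave 24 genes higher and again Ptgs2 lower, beside 6.83% and 2.71% of all tested genes, with a median of 1.91 against 0.00. In all, 22 genes were higher in both. Among the 26 genes with a mean of at least 1 CPM in the uninduced libraries, which a high induced level could not bring in, 17 were higher in OB than in control and 18 in siDNMT1_OB than in siDNMT1, beside 8.44% and 4.97% of all genes so filtered. The medians of these 26 genes were 1.29 and 1.56. Ptgs2 was again the gene lower in each, beside 7.71% and 3.04%.

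An additive model (edgeR quasi-likelihood test) set both induced libraries against both uninduced ones with siRNA as a covariate. It called 24 of the 32 genes higher and 2 lower at a Benjamini-Hochberg adjusted p under 0.05, beside 12% and 9.09% of all tested genes. Of the 26 genes that passed the filter without help from the induced libraries it called 18 higher and 2 lower, Ptgs2 and Bcl6, beside 10.6% and 9.39% of the genes so filtered. Among the 24 higher genes the adjusted p ran from 0.0014 for Tsc22d3 to 0.037 for Dusp1. The lower genes were Ptgs2 (adjusted p = 0.0068) and Bcl6 (adjusted p = 0.034). The 6 genes it did not call were Nr3c1 (adjusted p = 0.10), Cebpb (0.55), Sgk1 (0.056), Arrdc2 (0.13), Ddit4 (0.062) and Angptl4 (0.70). The model has 1 residual degree of freedom and counts any difference in the induction effect between the siRNA arms as spread.

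**Figure D1:**
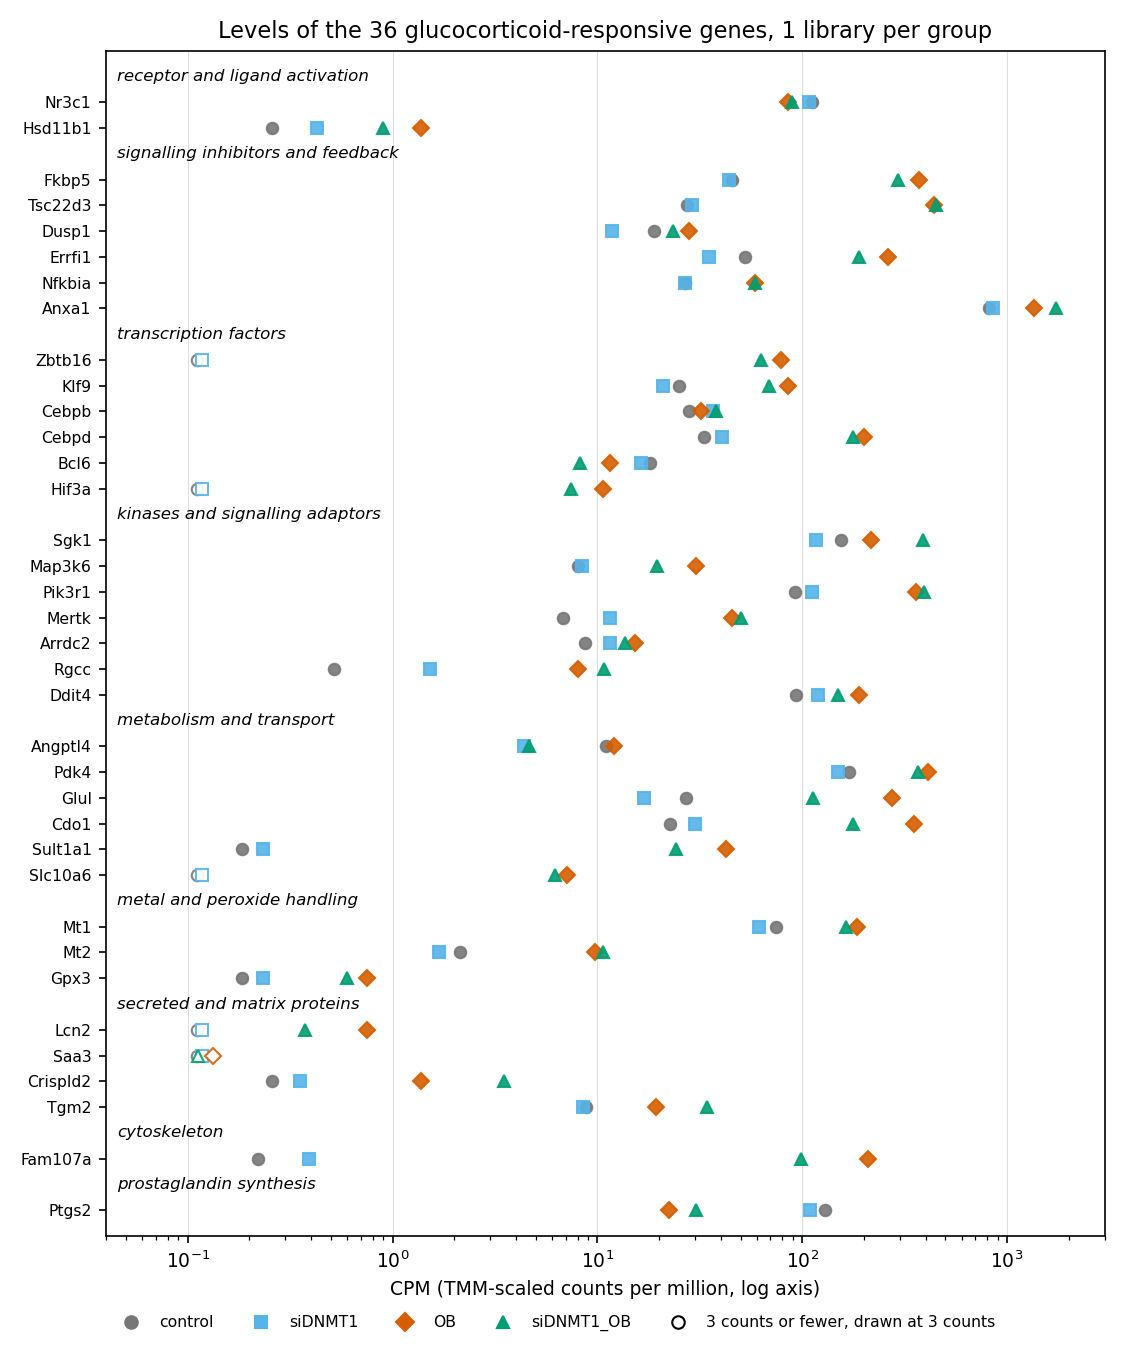
Level of each of the 36 genes in the 4 libraries, in CPM on a log axis, ordered by role, with 1 symbol per library and open symbols for 3 counts or fewer. For most genes the OB and siDNMT1_OB symbols lie to the right of both uninduced symbols, while those of Ptgs2, Bcl6 and Nr3c1 lie to the left.

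The receptor and the enzyme that makes its ligand were looked at first. Nr3c1, the glucocorticoid receptor itself (chromosome 18, 39410545 to 39491301, GRCm38), was well expressed throughout, with 111 CPM in control and 109 in siDNMT1, against 84.8 in OB and 89.3 in siDNMT1_OB. Both induced libraries were slightly below both uninduced ones. The log2 fold change of OB against control was -0.39 (95% interval -0.47 to -0.31) and that in the DNMT1 siRNA arm was -0.28 (-0.36 to -0.20), both short of the threshold of 1. Hsd11b1 encodes 11β-hydroxysteroid dehydrogenase type 1, which turns inactive keto forms of the natural hormones into active ones, a step that dexamethasone does not need. It was scarce, with 7, 11, 31 and 24 counts in control, siDNMT1, OB and siDNMT1_OB, and its ratio of induced to uninduced was 5.31 (95% interval 2.29 to 14.3) under control siRNA and 2.09 (0.985 to 4.72) under DNMT1 siRNA.

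Next came the genes by which glucocorticoids restrain signaling. Tsc22d3, which encodes the leucine zipper protein GILZ, an inhibitor of NF-κB and AP-1, had 27.4 CPM in control and 29.0 in siDNMT1, but 441 in OB and 450 in siDNMT1_OB. The induced libraries stood far above the uninduced ones and were close to each other. It was 16.1-fold higher in OB than in control (14.9 to 17.3) and 15.5-fold higher with DNMT1 siRNA (14.4 to 16.7), and on the log2 scale these differed by -0.05 (-0.21 to 0.10). Fkbp5, a cochaperone that lowers the affinity of the receptor for its ligand and so acts as a feedback brake, had 45.5 CPM in control and 44.1 in siDNMT1, against 372 in OB and 294 in siDNMT1_OB. It was 8.18-fold higher in OB than in control (7.70 to 8.69) and 6.67-fold higher with DNMT1 siRNA (6.27 to 7.11). Errfi1, a feedback inhibitor of the EGF receptor, had 52.8, 35.1, 261 and 190 CPM in control, siDNMT1, OB and siDNMT1_OB, the order kept from here on. It was lower with DNMT1 siRNA in both states, and its log2 fold changes on induction, 2.31 (2.23 to 2.39) and 2.43 (2.33 to 2.54), differed by 0.13 (-0.01 to 0.26). In such pairs of changes, that under control siRNA comes first.

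The other inhibitors moved less. Nfkbia, which encodes the NF-κB inhibitor IκBα, had 26.7 CPM in both uninduced libraries and 59.1 in both induced ones. The siRNA made no visible difference to it, and its log2 fold changes of 1.14 (1.01 to 1.28) and 1.15 (1.02 to 1.28) lay just past the threshold. Dusp1, a phosphatase that switches off MAP kinases, had 19.0, 11.7, 27.9 and 23.4 CPM. Its log2 fold changes of 0.55 (0.38 to 0.72) and 0.99 (0.79 to 1.20) stayed below the threshold, although the additive edgeR model called it higher. Anxa1, annexin A1, a mediator of the anti-inflammatory action of glucocorticoids, had 820, 853, 1347 and 1729 CPM. Per length it was the most abundant of the 36 genes in every library, at 901 to 2036 TPM (an abundance corrected for exonic length). It was past the threshold with DNMT1 siRNA (1.02, 1.00 to 1.04) and not with control siRNA (0.72, 0.69 to 0.74).

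Among the transcription factors, Zbtb16 went from no count to a clear signal. Zbtb16, also known as PLZF (chromosome 9, 48654297 to 48836222), had 0 counts in control and in siDNMT1, against 1780 in OB and 1688 in siDNMT1_OB. No read was seen without induction, at a depth where 3 counts equal 0.111 and 0.117 CPM. Set against 3 counts and leaving out counting error, it was at least 712-fold higher in OB and at least 539-fold higher in siDNMT1_OB. Hif3a, a hypoxia-inducible factor subunit that can oppose the other family members, showed the same pattern at a lower level. It had 0, 0, 240 and 199 counts, or on the same basis at least 95.9-fold and at least 63.5-fold more with induction.

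Cebpd and Klf9, transcription factors active early in fat cell formation and in hormone responses, rose from a level already present. Cebpd had 33.3 and 40.8 CPM in the uninduced control and siDNMT1 cells, and 201 and 176 in OB and siDNMT1_OB. The induced levels were 6.04-fold (5.62 to 6.50) and 4.32-fold (4.04 to 4.62) higher under control and DNMT1 siRNA. It overlaps Spidr on the opposite strand, which had 932, 1085, 2061 and 1863 counts, and since strand use is not stated some reads may belong to either gene. Klf9 had 679, 537, 1937 and 1849 counts and log2 fold changes of 1.77 (1.65 to 1.90) and 1.72 (1.58 to 1.86). Cebpb, a close relative of Cebpd, stayed between 28.0 and 38.0 CPM in all libraries, with log2 fold changes of 0.19 (0.04 to 0.34) and 0.05 (-0.08 to 0.18). It overlaps Tmem189 on the opposite strand. Bcl6, a transcriptional repressor best known from B cells, went the other way, with 18.0, 16.3, 11.5 and 8.22 CPM. Its log2 fold changes were -0.64 (-0.86 to -0.42) and -0.98 (-1.23 to -0.75), the latter just short of the threshold. Genes on the opposite strand from Bcl6, Glul and Mt2 held 30 counts or fewer.

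The kinases and signaling adaptors held Sgk1, the 1 gene of the 32 whose change on induction was larger with DNMT1 siRNA by at least 1. Sgk1, a kinase that promotes sodium uptake and cell survival (chromosome 10, 21882184 to 21999903) and the gene with the full palindrome printed above, had 155 CPM in control and 117 in siDNMT1, then 217 in OB and 389 in siDNMT1_OB. It was highest in siDNMT1_OB and lowest in siDNMT1. With control siRNA its log2 fold change was 0.49 (0.43 to 0.55), and with DNMT1 siRNA it was 1.73 (1.67 to 1.79). These differed by 1.24 (1.16 to 1.33), a difference with no replicate check.

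Pik3r1, the regulatory subunit of PI3 kinase, had 92.0, 111, 357 and 393 CPM and log2 fold changes of 1.96 (1.89 to 2.02) and 1.82 (1.76 to 1.88). Mertk, a receptor for the uptake of dying cells, had 6.78, 11.5, 45.2 and 50.0 CPM and was 6.67-fold (5.69 to 7.84) and 4.35-fold (3.83 to 4.95) higher with induction. For both genes the induced libraries were close to each other. Map3k6, a kinase upstream of stress MAP kinases, had 8.04, 8.43, 30.3 and 19.5 CPM, with log2 fold changes of 1.90 (1.69 to 2.14) and 1.20 (0.98 to 1.45). Rgcc, a regulator of the cell cycle first found as a complement response gene, rose from 14 counts in control and 39 in siDNMT1 to 182 in OB and 287 in siDNMT1_OB. Its uninduced libraries already differed, with a log2 fold change of 1.43 (0.65 to 2.56) in siDNMT1 against control, and the induced ones less so (0.41, 0.14 to 0.69). Ddit4, also called REDD1, an inhibitor of mTOR signaling, had 92.9, 119, 189 and 150 CPM. It was just past the threshold with control siRNA (1.02, 0.95 to 1.09) and not with DNMT1 siRNA (0.33, 0.26 to 0.40). Arrdc2, an arrestin-like protein, had 8.66, 11.6, 15.2 and 13.7 CPM and did not reach the threshold in either arm (0.81 and 0.24).

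The genes of metabolism and transport held some of the largest differences. Sult1a1, a phenol sulfotransferase (chromosome 7, 126672865 to 126676432), had 5 and 6 counts in control and siDNMT1, against 957 in OB and 644 in siDNMT1_OB. From near absence it was 230-fold (98.0 to 709) and 103-fold (47.0 to 281) higher with induction. Sgf29, on the opposite strand over part of the same DNA, had 266, 240, 133 and 213 counts and so did not go up with it. Slc10a6, a transporter of sulfated steroids, had 1 count in each uninduced library, 161 in OB and 167 in siDNMT1_OB. Its ratio was 193 (34.2 to 7674) under control siRNA and 160 (28.3 to 6352) under DNMT1 siRNA, wide intervals that rest on 1 count.

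Glul, glutamine synthetase, had 27.2 CPM in control and 16.9 in siDNMT1, against 275 in OB and 113 in siDNMT1_OB. Cdo1, cysteine dioxygenase, which begins the breakdown of cysteine, had 22.7, 29.9, 351 and 178 CPM in the same order. Both were far higher in OB than in either uninduced library, and siDNMT1_OB lay in between. Glul changed by 3.34 (3.23 to 3.45) on the log2 scale in the arm with control siRNA and by 2.74 (2.60 to 2.89) in that with DNMT1 siRNA. For Cdo1 it was 3.95 (3.83 to 4.07) and 2.57 (2.46 to 2.69). Per length, Cdo1 was the next most abundant of the 36 genes after Anxa1 in OB, at 709 TPM.

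Pdk4, a kinase that turns off pyruvate dehydrogenase and so spares glucose, had 170, 150, 412 and 368 CPM. Its log2 fold changes of 1.28 (1.22 to 1.33) and 1.29 (1.24 to 1.35) differed by 0.02 (-0.05 to 0.09). Angptl4, an inhibitor of lipoprotein lipase, differed between the siRNAs more than between the media. It had 299 counts in control and 273 in OB, but 112 in siDNMT1 and 124 in siDNMT1_OB. Its log2 fold changes on induction were 0.13 (-0.11 to 0.37) and 0.08 (-0.30 to 0.47).

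The metallothioneins Mt1 and Mt2, small proteins that bind zinc and copper, lie 5513 bases apart on chromosome 8 and resemble each other, so their reads may be hard to assign. Mt1 had 74.7 CPM in control and 61.7 in siDNMT1, against 186 in OB and 164 in siDNMT1_OB. Mt2 had 2.14, 1.68, 9.77 and 10.7 CPM. Both were higher in the induced libraries, by 1.31 (1.24 to 1.39) and 1.41 (1.32 to 1.49) on the log2 scale for Mt1 and by 2.15 (1.77 to 2.64) and 2.62 (2.20 to 3.17) for Mt2. Per length, Mt1 was above Mt2 in every library, at 149 to 460 TPM against 8.58 to 55.8 TPM. Mt1 carries the core palindrome in the window printed above, and Mt2 does not. Gpx3, an extracellular glutathione peroxidase, stayed below the expression filter with 5, 6, 17 and 16 counts.

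Of the secreted and matrix proteins, Tgm2, a transglutaminase that crosslinks matrix proteins, had 8.81, 8.55, 19.4 and 34.2 CPM. It was highest in siDNMT1_OB, and its log2 fold change was 1.13 (0.91 to 1.37) under control siRNA and 1.99 (1.79 to 2.22) under DNMT1 siRNA. Rprd1b, which overlaps it on the opposite strand, had 1125, 1185, 769 and 912 counts and did not go up with it. Crispld2, a secreted protein that binds lipopolysaccharide, had 7, 9, 31 and 94 counts, and was also highest in siDNMT1_OB, with log2 fold changes of 2.11 (1.20 to 3.84) and 3.06 (2.34 to 4.49). Lcn2, an iron-binding lipocalin of the acute phase, had 0 counts in both uninduced libraries, 17 in OB and 10 in siDNMT1_OB. Set against 3 counts and leaving out counting error, this was at least 6.80-fold and at least 3.19-fold more. Saa3, serum amyloid A3, had 0 counts in all 4 libraries, which allows at most 0.111 CPM in control and 0.133 CPM in OB.

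Fam107a, an actin-associated stress gene also known as DRR1 (chromosome 14, 8296274 to 8318023), had 6 and 10 counts in control and siDNMT1, against 4720 in OB and 2628 in siDNMT1_OB. Nearly all of its reads came from the induced libraries. It was 944-fold higher in OB than in control (433 to 2572) and 252-fold higher in siDNMT1_OB than in siDNMT1 (137 to 525).

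Ptgs2 is cyclooxygenase-2, the prostaglandin-forming enzyme that glucocorticoids are known to hold down. On induction it was the only tested gene of the 32 lower by more than the threshold. It had 129 CPM in control and 109 in siDNMT1, against 22.4 in OB and 30.2 in siDNMT1_OB, so both induced libraries lay below both uninduced ones. Its log2 fold change was -2.53 (-2.67 to -2.40) under control siRNA and -1.84 (-1.96 to -1.73) under DNMT1 siRNA, a difference of 0.68 (0.51 to 0.86).

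**Figure D2:**
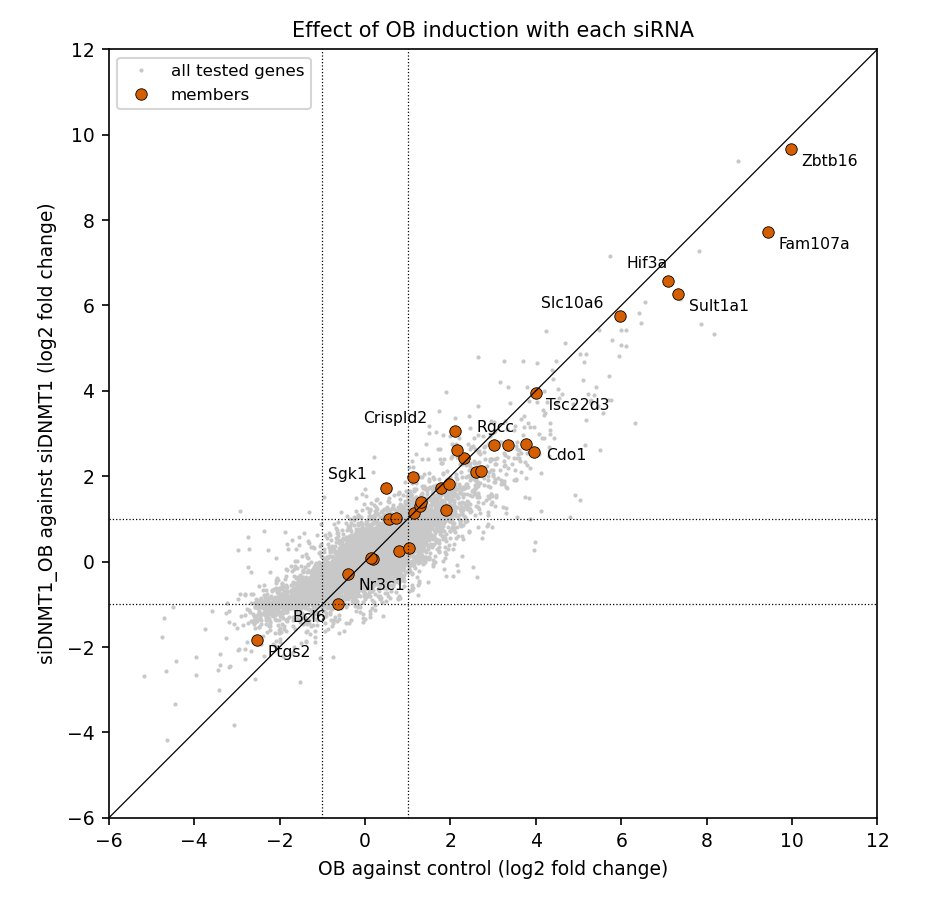
Log2 fold change on OB induction with control siRNA (horizontal) and with DNMT1 siRNA (vertical), for all 13233 tested genes in gray and the 32 tested glucocorticoid-responsive genes in orange. Dotted lines mark the threshold of 1 and the solid line equal change. Zbtb16, Fam107a and Sult1a1 lie at the upper right, Ptgs2 at the lower left and Sgk1 above the line.

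To see whether the response to the medium differed with DNMT1 siRNA, the 2 log2 fold changes on induction were subtracted gene by gene. Of the 22 genes higher in both arms, 15 (68.2%) changed less with DNMT1 siRNA, while 76.1% of the 773 such genes among all tested did so. Without the 6 genes that passed the filter only through the induced libraries it was 10 of 16 (62.5%), beside 78.4% of the 538 such genes. These directions and shares too rest on the library labelled siDNMT1_OB, whose Dnmt1 level did not lie below that of OB. Shares with that direction turned are not given here. A difference of at least 1 in size was seen for Sgk1, above, and for Cdo1, Fam107a, Rgcc and Sult1a1, below, beside 3.27% of all tested genes above and 2.95% below. These differences were -1.37 (-1.54 to -1.21) for Cdo1, -1.73 (-3.37 to -0.45) for Fam107a, -1.02 (-2.07 to -0.23) for Rgcc and -1.06 (-2.88 to 0.56) for Sult1a1. For the last 3 they rest on 5 to 39 counts in the uninduced libraries, and for Sult1a1 the interval includes 0. Fam107a and Sult1a1 also passed the filter only through the induced libraries. Shares without such genes are not given for differences of this size. The threshold of the differences was not passed by Tgm2 (0.86, 0.55 to 1.17) or Glul (-0.60, -0.78 to -0.42), although their intervals leave out 0.

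Between the siRNAs most of the genes differed little. In siDNMT1 against control, Rgcc was higher and Angptl4 lower by at least 1, beside 1.97% and 1.37% of all tested genes, and the median of the 32 genes was 0.00. Mertk came next among the higher genes at 0.76 (0.49 to 1.04). Angptl4, with 112 counts against 299, stood at -1.32 (-1.66 to -1.02). In siDNMT1_OB against OB, Crispld2 was higher and Angptl4, Glul and Fam107a were lower, beside 2.36% and 1.37% of all tested genes. Of these, Crispld2 and Fam107a passed the filter only through the induced libraries. The median of the 32 genes was -0.18, against 0.01 over all tested genes. Angptl4 had 124 counts against 273 (-1.37, -1.70 to -1.07), so that its difference between siRNAs was of like size in both states. Glul had 3036 counts against 6226 (-1.28, -1.34 to -1.22) and Fam107a 2628 against 4720 (-1.09, -1.16 to -1.02), whereas Crispld2 had 94 against 31 (1.31, 0.76 to 1.99). Just inside the threshold lay Cdo1 at -0.98 (-1.03 to -0.93), Sult1a1 at -0.81 (-0.96 to -0.67), Sgk1 at 0.84 (0.79 to 0.89) and Tgm2 at 0.82 (0.65 to 0.99). The 6 tested genes of metabolism and transport ranged from -1.37 to -0.16 in this comparison, with a median of -0.90. Medians of other roles lay on either side of 0. They were 1.06 for the 2 tested secreted and matrix proteins, 0.14 for the 7 kinases and signaling adaptors and -0.31 for the 6 transcription factors.

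The additive edgeR model called none of the 13233 genes for the siRNA at a Benjamini-Hochberg adjusted p under 0.05, although 1148 (8.68%) had an unadjusted p under 0.05. For the glucocorticoid-responsive genes the lowest adjusted p for the siRNA was that of Angptl4 (0.16). DESeq2 on the same model called 75 genes higher and 60 lower, and of the 32 genes it called Angptl4 (adjusted p = 0.016) and Glul (adjusted p = 0.0028), both lower. The calls for the siRNA thus depended on the tool.

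**Figure D3:**
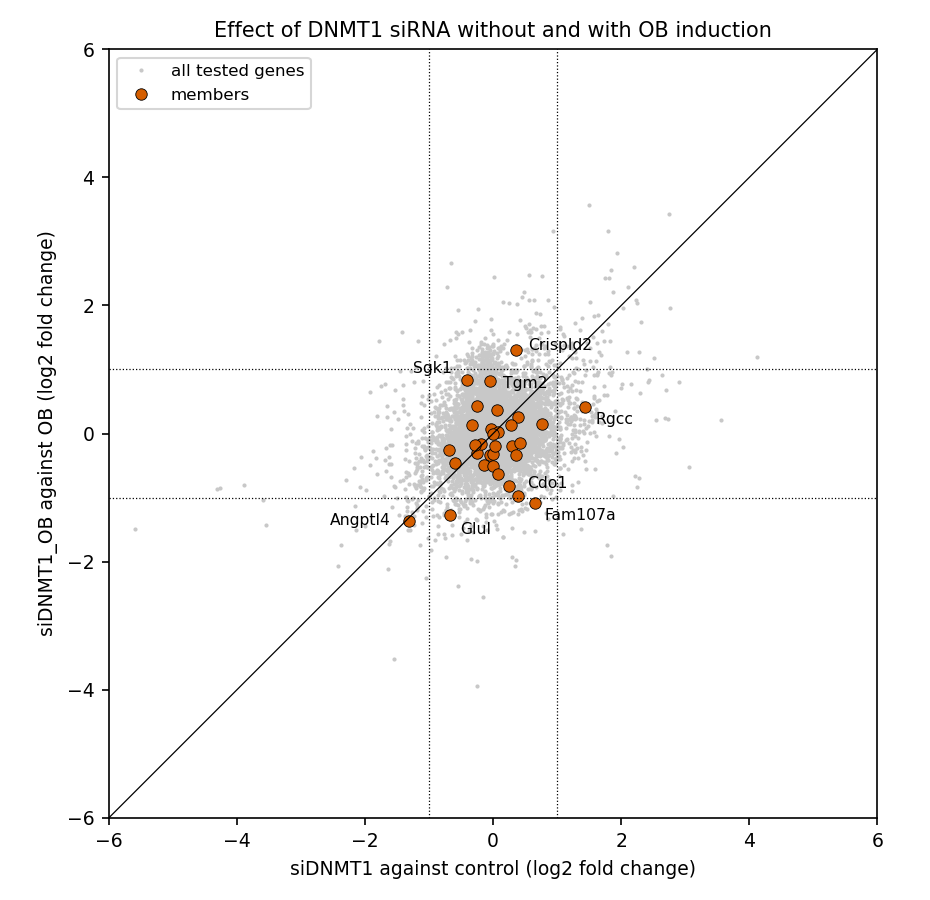
Log2 fold change with DNMT1 siRNA in uninduced cells (horizontal) and in induced cells (vertical), for all 13233 tested genes in gray and the 32 tested glucocorticoid-responsive genes in orange. Most of the 32 genes lie within the dotted lines at 1, Angptl4 lies past them in both states, Rgcc in uninduced cells alone, and Crispld2, Glul and Fam107a in induced cells alone.

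**Figure D4:**
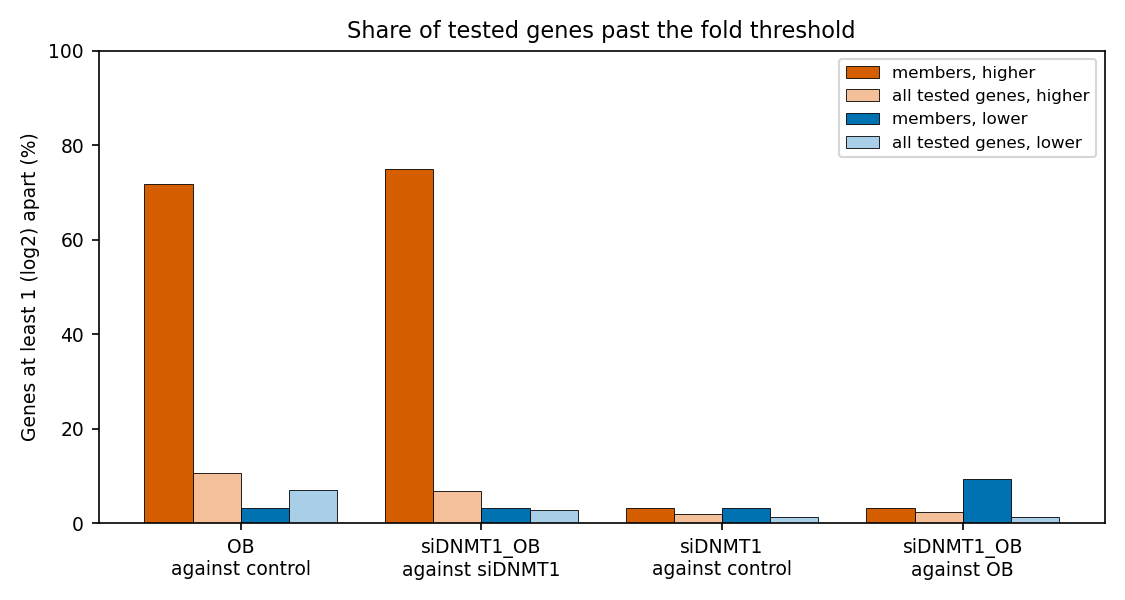
Share of the 32 tested glucocorticoid-responsive genes and of all 13233 tested genes that were higher or lower by at least 1 (log2), in percent, for the 4 comparisons. The shares of higher glucocorticoid-responsive genes, 71.9% and 75.0%, stand above those of all genes in both comparisons on induction and near them in both comparisons on siRNA, while 9.38% against 1.37% were lower in siDNMT1_OB against OB. They include the 6 genes that passed the filter only through the induced libraries, without which 17 and 18 of 26 were higher on induction. Fam107a, among those 6, is also among the genes lower in siDNMT1_OB against OB. That comparison rests on the library labelled siDNMT1_OB, whose Dnmt1 level did not lie below that of OB.

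Other genes of the pathway, from lists of general knowledge, put these values in context. Of 30 further genes known to be raised by glucocorticoids, 23 were tested. In each of the comparisons on induction 5 of the 23 were higher and none was lower by at least 1, beside 10.6% and 6.83% of all tested genes higher, with medians of 0.63 and 0.40. In both, the 5 include Klf15, at 0.332 CPM in control and 0.664 in siDNMT1. It passed the filter only through the induced libraries, so it had to differ between them. The additive edgeR model called 8 higher and none lower, beside 12% of all tested genes higher. Per1, a clock gene that glucocorticoids induce directly, had 898 and 790 counts without induction and 3637 and 4066 with it, with log2 fold changes of 2.28 and 2.30. Ehd3, an endocytic protein, rose from 190 and 199 counts to 2869 and 2469 (4.16 and 3.56). Sesn1, a stress-induced inhibitor of mTOR signaling, had log2 fold changes of 1.67 and 1.25, and Fbxo32, a ubiquitin ligase of muscle wasting, had 1.34 with control siRNA and 0.15 with DNMT1 siRNA.

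Genes that glucocorticoids are known to hold down were mostly at low counts in these cells. Only 9 of 28 passed the filter. In OB against control 3 of the 9 were lower and none higher (median -0.59), beside 7.1% and 10.6% of all tested genes. In siDNMT1_OB against siDNMT1 none was lower and 1, the cytokine gene Il11, was higher (median -0.13), beside 2.71% and 6.83%. The additive edgeR model called 1 of the 9, Lif, lower and none higher, beside 9.09% and 12% of all tested genes. Ccl2, a chemokine that attracts monocytes, had 548 counts in control but 135 in siDNMT1, 123 in OB and 229 in siDNMT1_OB. It was high in control alone, so its log2 fold change on induction was -1.88 under control siRNA and 0.69 under DNMT1 siRNA. Ccl7, its neighbor in function, had 94, 51, 35 and 83 counts, and Lif, a cytokine of the interleukin-6 family, had 145, 93, 36 and 52 counts.

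Several chaperones that hold the receptor before it binds ligand had lower levels after induction. Of 24 tested genes of the receptor complex, its import and its coregulators, 5 were lower and none higher by at least 1 in OB against control (median -0.45), beside 7.1% of all tested genes lower. None passed in either direction in siDNMT1_OB against siDNMT1 (median -0.25), and the additive edgeR model called 7 lower, beside 9.09% of all tested genes. Hsp90aa1, an HSP90 subunit of the complex, had log2 fold changes of -1.19 and -0.46, the cochaperone Stip1 had -1.14 and -0.58, and Fkbp4, the counterpart of Fkbp5 that favors ligand binding, had -1.20 and -0.52. Ipo7, an import factor, had -1.02 and -0.57. Whether the chaperone levels had a part in the levels of the 36 genes was not tested.

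Among 13 genes of corticosteroid metabolism and related receptors, 6 were tested. In OB against control 3 were higher and 1 was lower (median 0.88), beside 10.6% and 7.1% of all tested genes. In siDNMT1_OB against siDNMT1 Abcb1a alone was higher and none lower (median 0.62), beside 6.83% and 2.71%. The additive edgeR model called 3 higher and none lower, beside 12% and 9.09% of all tested genes. The 3 were Abcb1a, Abcb1b and H6pd, an enzyme that supplies the cofactor of the enzyme that Hsd11b1 encodes. H6pd was named after its values were seen. Abcb1a and Abcb1b, drug efflux pumps that also carry glucocorticoids, had log2 fold changes of 2.98 and 2.39 for the former and of 1.73 and just under 1 for the latter. Srd5a1, a steroid reductase, had 134, 123, 51 and 81 counts.

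Some markers of another cell fate were higher after induction. The 8 adipocyte markers summed to 48.8 CPM in control and 50.3 in siDNMT1, against 112 in OB and 102 in siDNMT1_OB. Between 2 and 4 of the 8 were at 0 in each library, and Plin1 and Lep were at 0 in all. The increase was mostly that of Fabp4, a fatty acid carrier with 111, 72, 963 and 1305 counts. Cebpa, a transcription factor of fat cells, had 78, 189, 242 and 291 counts, with log2 fold changes of 1.87 under control siRNA and 0.55 under DNMT1 siRNA. Of the 4 tested, these 2 were higher by at least 1 in OB against control and Fabp4 alone in siDNMT1_OB against siDNMT1, beside 10.6% and 6.83% of all tested genes. Pparg, the master regulator of fat cell formation, had log2 fold changes of 0.43 and -0.08, and Lipe, a lipase, had 0.69 in both arms. Markers of macrophages, endothelial, epithelial and liver cells were low, at no more than 7.81 CPM summed over any list. The part of these cells in the levels of the 36 genes was not tested.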

How the data were processed

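Poly(A) RNA of 4 samples, 1 library per group, was sequenced from TruSeq libraries. The authors deposited raw whole-number counts per gene with each gene's position and exonic length. The submitters' processing notes name Trimmomatic, HISAT2, featureCounts and mm10. For the RNA libraries, versions, strand use and the treatment of multiply aligned reads are not given in the sources used here. Of the 36 genes, 31 had the same span in GENCODE M21 (GRCm38), and no row lacked a gene name.

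From the counts, edgeR 4.0.16 under R 4.3.3 gave TMM factors of 0.991 to 1.01 on genes with a mean of at least 1 CPM (13233 genes). Log2 fold changes used a prior count of 2, and a gene was past the threshold at 1 in size. Intervals are exact binomial 95% intervals of the ratio of reads, without a prior. Those of the difference between 2 log2 fold changes are normal approximations. There were no molecular identifiers, so both cover counting error only. Folds against 0 counts were set against 3 counts and leave out the counting error of the other library. TPM was computed from the counts and the deposited exonic length. The additive edgeR quasi-likelihood model was run on simulated counts with known induction folds and no difference between the siRNA arms. It was not tried on counts in which the arms differ. Nothing says that the libraries came from more than 1 culture each, so its p-values measure only the spread between these libraries.

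The genes and lists were chosen with earlier results of these data known, so they give no independent support. Genes of the lists were named when past the threshold on induction, up to 4 per list by mean CPM. Klf15 was named as well, because it passed the filter only through the induced libraries. Runx2, Alpl, Bglap, Pparg, Lipe, Plin1 and Lep were named as markers, whatever their change, and 1 gene of these lists is not reported here. Alternatives were other scalings (total count, upper quartile, DESeq2 1.42.0 size factors), filters (none, mean CPM of at least 5), prior counts (0.5, 5), a DESeq2 test, and the whole interval past the threshold. A filter on the uninduced libraries was added after seeing the data.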

Additional observations from a re-analysis of the deposited data

Results flagged for a closer look

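The effect of DNMT1 siRNA went in opposite directions in uninduced and induced cells for 5 genes in which the counting interval of each effect lay on its own side of 0. These are 15.6% of the 32 tested genes, near the 12.6% of all 13233, so such opposite directions were not particular to the glucocorticoid-responsive genes. For Sgk1 it was -0.40 (-0.47 to -0.33) in siDNMT1 against control and 0.84 (0.79 to 0.89) in siDNMT1_OB against OB, a difference of 1.24 on the log2 scale. For Cdo1 it was 0.39 (0.24 to 0.55) and -0.98 (-1.03 to -0.93), a difference of -1.37. The other 3 differences were smaller. Cebpd had 0.29 (0.16 to 0.42) and -0.19 (-0.25 to -0.13), which differ by -0.48. Ddit4 had 0.36 (0.28 to 0.44) and -0.33 (-0.40 to -0.27), which differ by -0.69, and Ptgs2 had -0.25 (-0.33 to -0.18) and 0.43 (0.27 to 0.59), which differ by 0.68. With 1 library per group, none of these differences was tested across cultures. Their directions and both shares rest on the library labelled siDNMT1_OB, whose Dnmt1 level did not lie below that of OB. With the direction of siDNMT1_OB against OB turned, these 5 genes would agree in sign, because they were picked for opposite signs. Genes that now agree, such as Angptl4 (-1.32 and -1.37), would then disagree, so the labels were not tested by this. Shares so turned are not given here.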

How the results depend on the processing

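No pairing by replicate was possible because each group holds 1 library, so that a replicate number adds no block to the comparisons within each siRNA arm. The additive model took the siRNA arm as a covariate. No direction of a called result was reversed under any alternative run. In siDNMT1_OB against siDNMT1, DESeq2 size factors gave 2 genes lower in place of 1, since Bcl6 lies at the threshold, and 23 higher without Anxa1, while OB against control kept 22 without Ddit4, and a mean CPM of at least 5 gave a median of 1.73. In siDNMT1_OB against OB, Crispld2 was lost with a mean CPM of at least 5 and when the whole interval had to pass, leaving 0 genes higher. When the whole interval had to pass, Rgcc was lost in siDNMT1 against control, leaving 0. On induction that setting left 21 genes higher in OB against control, without Ddit4 and Tgm2. In siDNMT1_OB against siDNMT1 it left 22, without Anxa1 and Map3k6. A prior count of 5 left 2 genes with a difference of at least 1 below, in place of 4. With the filter on uninduced libraries, chosen after seeing the data, the medians were 1.29 in OB against control and 1.56 in siDNMT1_OB against siDNMT1, because genes near 0 without induction drop out. For the siRNA, DESeq2 gave 2 genes lower where edgeR gave 0. Other scalings moved the median of all genes by at most 0.05. Depth limits the folds of Zbtb16, Hif3a, Fam107a, Sult1a1, Slc10a6, Rgcc, Crispld2 and the genes below the filter. The library labelled siDNMT1_OB did not show lower Dnmt1.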
